A study of Coryphaena hippurus with 27 samples.

Results

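The miR-430 family of mahi-mahi (Coryphaena hippurus), a fast-growing pelagic fish, was followed through early development in clean and oiled seawater. The family was taken as every row of the deposited miRNA count tables whose name is miR-430, with or without a letter or an arm. Of 1449 names in the 6 tables, 8 met this rule: miR-430, miR-430a, miR-430a-3p, miR-430b, miR-430c, miR-430c-3p, miR-430d and miR-430i-3p. All 8 were listed in each of the 6 tables. Small RNA libraries were made from whole embryos or larvae, 30 animals pooled per library, and 3 libraries were made for each of 9 groups, 27 in all. The slick oil groups were held with a high-energy water-accommodated fraction (oil blended into seawater) of Deepwater Horizon oil collected as slick, labelled 1 g/l, to 24, 48 or 96 h post fertilisation (hpf). The source oil groups were held with the same kind of preparation of source oil, also labelled 1 g/l, to the same 3 stages. The control groups had no oil, labelled 0 g/l, and were sampled at the same 3 stages. All groups were kept at 27 °C from soon after fertilisation, in water that was not renewed. The labels state a concentration and no measured hydrocarbon content, and a pool does not show differences between single animals.

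In zebrafish, miR-430 is made from a large cluster of near-identical copies as transcription of the embryo's own genome begins, and it speeds the deadenylation and clearance of maternal mRNAs. Its members share a seed, the stretch that pairs with target mRNAs, and in zebrafish they also tune signals that pattern the early embryo. Close relatives are miR-427 in Xenopus and the miR-302 family in mammals. No mature sequence of the mahi-mahi names was used here, so seeds and copies were not compared.

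Library totals lay between 51925 and 93055 counts with a median of 70501, and 893 to 1005 names had at least 1 count. At 96 hpf the totals were higher in oil, at 89482 to 93055 in slick oil and 86977 to 90152 in source oil, against 63162 to 75228 in controls. Lists of names linked to the main tissues of a larva (muscle, brain, liver, red blood cells, eye, lens and leukocytes) each had counts in every library. The lists hold only the joined names described further on, so names missing from a table were not looked at. In whole animals, fewer cells of a type and less RNA per cell cannot be told apart. Replicates are separate pools, but nothing in the labels says that the pools came from separate spawns, so p-values do not measure a spread between spawns. They rest on the spread between these pools, or on the sampling of counts where the pools varied less than that.

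Some of the 8 names had nearly the same counts. miR-430 and miR-430a-3p differed by at most 5.08% of the larger count in any library, and were within 5% of each other in 26 of 27 libraries. miR-430 and miR-430a differed by at most 7.14%, and miR-430a and miR-430a-3p by at most 11.9%. These 3 names are called the miR-430a set below. miR-430b and miR-430d differed by at most 16.0% and were within 5% of each other in 1 of 27 libraries. Their log2 counts had a Pearson correlation of 0.9996 over the 27 libraries, which includes the shared change with stage. The lowest such correlation of any pair of the 8 names was 0.936. miR-430c-3p followed miR-430b with a correlation of 0.992, though their counts differed by up to 61.5%. miR-430c and miR-430c-3p had a correlation of 0.951 and differed by up to 90.9%. Reads of near-identical sequences can be split between names or counted under several, and the counting rule is not given in the sources used here. It is therefore not known whether names with like counts are separate measurements of separate genes, and they are not treated as such. Nor is it stated whether a count is a read or a distinct sequence, and in 19 of 27 replicate pairs the counts varied less than sampling of reads would give. Shares, ranks and fold changes are therefore those of the deposited counts.

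The family made up a visible share of the youngest libraries and a small share of the oldest. Summed over the 8 names, it took 3.17 to 3.48% of the counts in slick oil, 3.53 to 3.58% in source oil and 3.56 to 3.61% in controls at 24 hpf. At 48 hpf the share was 1.75 to 1.85% in slick oil, 1.80 to 1.87% in source oil and 1.93 to 2.01% in controls. At 96 hpf it was 0.700 to 0.767% in slick oil, 0.677 to 0.756% in source oil and 0.648 to 0.785% in controls, so the summed share overlapped between all 3 treatments at that stage. Before that, the slick oil libraries had lower raw shares than every control library at 24 and 48 hpf. The source oil libraries had lower raw shares than controls at 48 hpf only. The slick oil separation at 24 hpf did not hold under the scaling used in the tests below, where those libraries overlapped. The sum counts names with nearly the same counts separately, and it carries no test. In controls, miR-430b held rank 8 to 18 by count at 24 hpf, rank 75 to 105 at 48 hpf and rank 375 to 445 at 96 hpf.

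**Figure D1:**
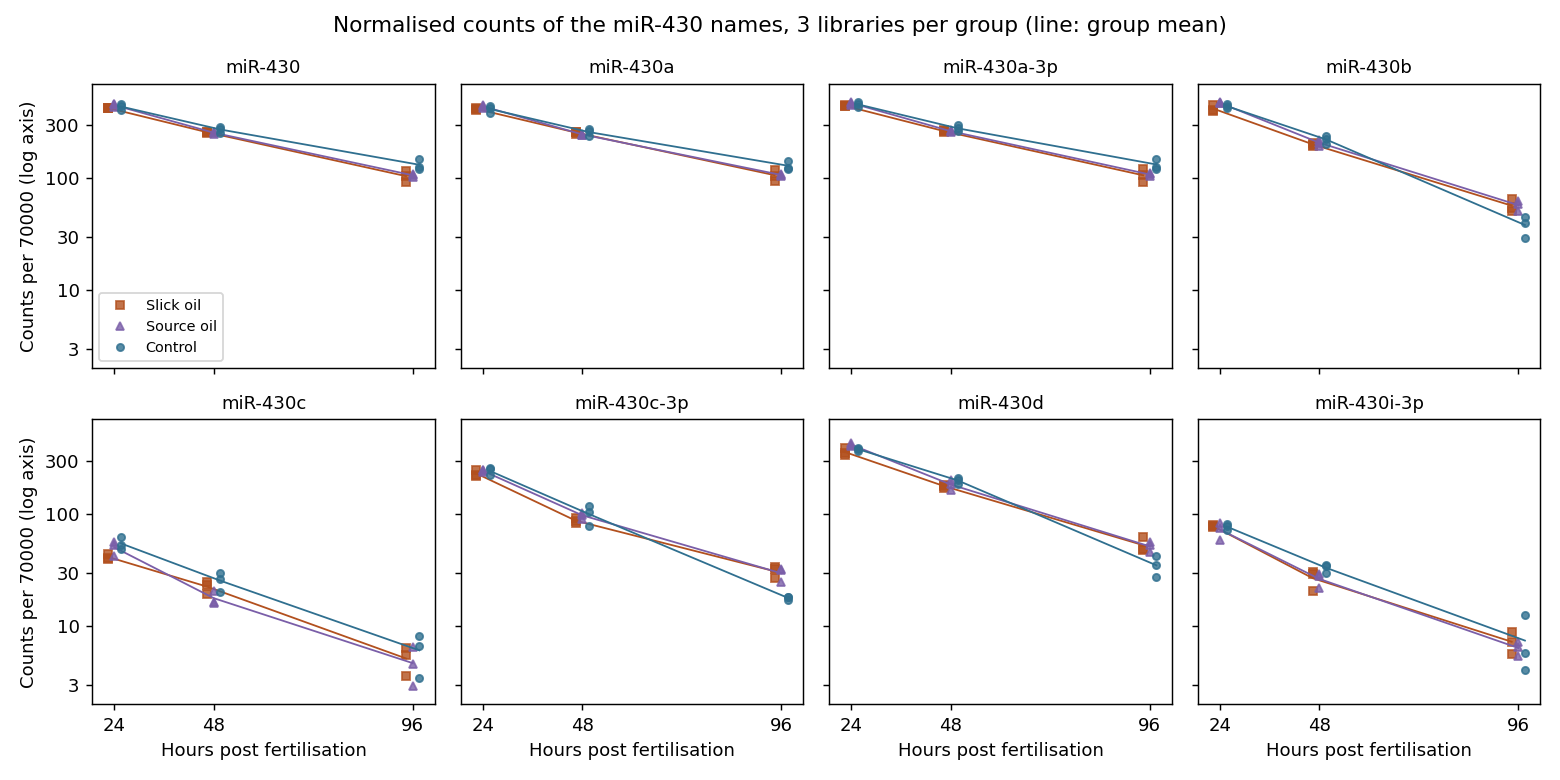
Normalised counts per 70000 (log axis) of the 8 miR-430 names against hours post fertilisation, with 1 point per library, 3 libraries per group, points set slightly apart by treatment, and lines through the group means. All 8 names are lower at each later stage in all 3 treatments, and the control line crosses below both oil lines by 96 hpf for miR-430b, miR-430c-3p and miR-430d.

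To follow each name over the 3 stages, counts were scaled by the trimmed mean of M-values (TMM) over all 27 libraries and are given per 70000 counts. In slick oil miR-430b had 396, 406 and 453 normalised counts at 24 hpf, 200, 207 and 196 at 48 hpf, and 54.6, 50.5 and 65.6 at 96 hpf. In source oil it had 466, 477 and 469 at 24 hpf, 193, 208 and 222 at 48 hpf, and 50.8, 59.4 and 62.4 at 96 hpf. In controls it had 457, 423 and 444 at 24 hpf, 224, 240 and 202 at 48 hpf, and 45.3, 29.5 and 39.8 at 96 hpf. In each treatment the 3 stages did not overlap.

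miR-430d, which shadowed miR-430b, averaged 379.6 ± 8.94 normalised counts at 24 hpf, 199.9 ± 12.3 at 48 hpf and 34.8 ± 7.23 at 96 hpf in controls (SD, n = 3 each). miR-430c-3p averaged 243 ± 18.3, 99.9 ± 20.7 and 17.8 ± 0.693 at the same stages in controls. miR-430a averaged 416 ± 32.0, 258 ± 19.4 and 129 ± 11.7. At 24 hpf miR-430a, miR-430b and miR-430d thus stood at similar counts in controls, and by 96 hpf miR-430a stood well above the other 2. The least abundant names were miR-430c, with 54.6 ± 7.06, 25.4 ± 4.95 and 6.06 ± 2.42 normalised counts, and miR-430i-3p, with 77.3 ± 4.52, 33.1 ± 2.82 and 7.41 ± 4.46. At 96 hpf these last 2 names had raw counts between 3 and 13 in every library, which limits what can be said of differences between treatments in them. In the authors' deposited DESeq2 results at 96 hpf, miR-430c had a log2 fold change of -0.11 in slick oil (adjusted p = 0.814) and -0.16 in source oil (adjusted p = 0.716). For miR-430i-3p these were 0.03 (adjusted p = 0.946) and -0.07 (adjusted p = 0.890). Deposited values of low-count names can lie nearer 0 than those of the tests given below. In source oil at 48 hpf they were -0.22 for miR-430c and -0.16 for miR-430i-3p, against -0.54 and -0.34 in those tests. The cause of this difference was not tested.

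Every name fell with every step of development. At 48 against 24 hpf, edgeR's quasi-likelihood test with Benjamini-Hochberg adjustment over all names called 8 of 8 lower in controls, where 22.0% of the 605 names tested were called lower. It also called 8 of 8 lower in slick oil, against 20.9% of all names, and 8 of 8 in source oil, against 21.7%. At 96 against 48 hpf it called 8 of 8 lower in controls (29.1% of all names), in slick oil (24.2%) and in source oil (22.6%). The median log2 change of the 8 names at 48 against 24 hpf was -0.97 in controls, -0.93 in slick oil and -1.18 in source oil, and the median of all names tested was close to 0 in each.

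The size of the fall differed between names, and differences between names were not tested. At 48 against 24 hpf in controls, miR-430b changed by a log2 fold change of -1.001 ± 0.067 (SE, adjusted p = 4.45e-11), miR-430c-3p by -1.28 ± 0.10 (adjusted p = 1.36e-10) and miR-430a by -0.70 ± 0.07 (adjusted p = 3.66e-08). At 96 against 48 hpf in controls, miR-430b changed by -2.50 ± 0.14 (adjusted p = 3.69e-13), miR-430d by -2.49 ± 0.14 (adjusted p = 2.46e-13) and miR-430c-3p by -2.46 ± 0.21 (adjusted p = 2.45e-10). These were the lowest 3 log2 fold changes of the 605 names tested in controls at that step. miR-430a changed by -0.95 ± 0.10 (adjusted p = 2.27e-08) at the same step. Since that step spans 48 h, the fall per 24 h in controls was -1.001 and then -1.252 on the log2 scale for miR-430b, -1.28 and then -1.23 for miR-430c-3p, and -0.70 and then -0.47 for miR-430a.

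The same step is given next for the oil groups. At 96 against 48 hpf, miR-430b changed by -1.70 ± 0.11 in slick oil (adjusted p = 2.27e-12) and -1.72 ± 0.11 in source oil (adjusted p = 1.78e-10). For miR-430c-3p the log2 fold changes were -1.37 ± 0.14 in slick oil and -1.59 ± 0.13 in source oil, and for miR-430d -1.63 ± 0.11 and -1.70 ± 0.12. miR-430a had -1.14 ± 0.08 in slick oil and -1.08 ± 0.08 in source oil at this step. As a share of its own 24 hpf mean, miR-430b stood at 13.6% in slick oil, 12.2% in source oil and 8.66% in controls at 96 hpf. miR-430c-3p stood at 13.4%, 12.2% and 7.33%, and miR-430d at 14.7%, 12.4% and 9.17%, in the same order of treatments. For miR-430a the controls stood highest instead of lowest, with 25.6% in slick oil, 24.4% in source oil and 31.1% in controls. These shares use the scaling over all 27 libraries and carry no test. Compared with scaling within 1 oil and stage, it moved the median log2 oil effect of all names at 96 hpf by -0.09 in each oil. The difference of the 48 to 96 hpf step between treatments was not tested by itself, and the oil effect over the 3 stages was tested jointly, as given further on.

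Oil was next compared with control within each stage, in the table that holds both, with TMM scaling within that table. Both oils were compared with the same 3 control libraries of a stage, so their results are given side by side and are not independent of each other. At 24 hpf, 0 of 8 names passed the test in slick oil, where 38.6% of 616 names tested passed in either direction, and 0 of 8 passed in source oil, where 26.3% of 600 names passed. At 48 hpf, 0 of 8 passed in slick oil, where 40.8% of 642 names passed, and 0 of 8 in source oil, where 19.4% of 651 names passed. edgeR gave an unadjusted p below 0.05 to 1 name in slick oil and 0 in source oil at 24 hpf, and to 2 names in slick oil and 1 in source oil at 48 hpf. DESeq2 called 0 names in each of these 4 comparisons, and so did the authors' deposited tables.

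The values at those early stages were close between treatments for the abundant names, though at 48 hpf every name had a log2 fold change below 0 in both oils. At 24 hpf, scaled within its own table, miR-430b had 384, 400 and 439 normalised counts in slick oil, against 449, 412 and 434 in controls, and the groups overlapped. Its log2 fold change was -0.08 (95% interval -0.23 to 0.07) in slick oil and 0.08 (-0.06 to 0.21) in source oil. At 48 hpf it was -0.17 (-0.29 to -0.05, adjusted p = 0.0857) in slick oil and -0.11 (-0.25 to 0.03) in source oil. The name nearest the threshold at 24 hpf was miR-430c, with 39.1, 39.1 and 43.0 normalised counts in slick oil, against 61.2, 51.7 and 47.3 in controls. The groups did not overlap, and its log2 fold change of -0.41 ± 0.16 had an adjusted p of 0.0537. At 48 hpf in slick oil, miR-430d had a log2 fold change of -0.19 ± 0.06 (adjusted p = 0.0584).

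At 96 hpf miR-430b, miR-430c-3p and miR-430d were higher in both oils than in controls, by 1.6- to 1.9-fold, and 0 names of the miR-430a set were called higher. Of the 8 names, 6 passed the filter on low counts in both tables, and miR-430c and miR-430i-3p did not. In slick oil 3 names were called higher, where 32.5% of 671 names tested were called higher, and 1 was called lower, where 27.6% were called lower. In source oil 3 names were called higher, where 28.3% of 661 names tested were called higher, and 0 lower, where 19.7% were called lower. edgeR gave an unadjusted p below 0.05 to 5 names in slick oil and 4 in source oil.

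**Figure D2:**
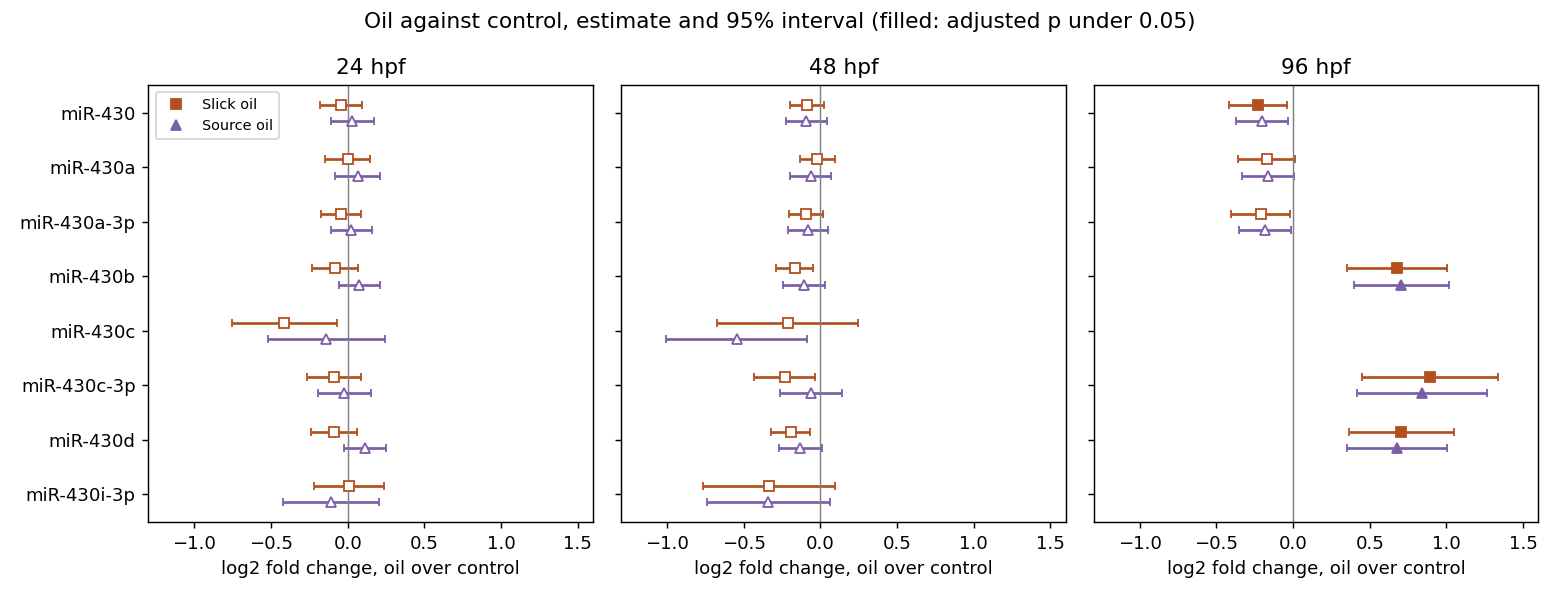
Log2 fold change of oil over control with its 95% interval for each miR-430 name at 24, 48 and 96 hpf, slick oil as squares and source oil as triangles, filled where the adjusted p is below 0.05. No symbol is filled at 24 or 48 hpf, and at 96 hpf miR-430b, miR-430c-3p and miR-430d lie right of 0 in both oils, while miR-430c and miR-430i-3p were not tested.

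miR-430b had 58.5, 54.7 and 69.0 normalised counts in slick oil at 96 hpf, against 45.5, 29.6 and 39.6 in controls. In source oil it had 52.9, 64.0 and 66.3, against 45.9, 28.96 and 39.0 in the same controls scaled within that table. Every oil library lay above every control library. The log2 fold change was 0.68 ± 0.16 in slick oil (95% interval 0.36 to 1.00, adjusted p = 2.96e-04) and 0.71 ± 0.16 in source oil (0.40 to 1.01, adjusted p = 7.37e-05).

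miR-430c-3p, the least abundant of the names that passed the filter, had 35.8, 28.9 and 34.1 normalised counts in slick oil at 96 hpf, against 18.2, 18.4 and 16.95 in controls. In source oil it had 25.6, 34.3 and 34.3, against 18.4, 17.97 and 16.7 in controls. The groups did not overlap in either table, and the 3 control libraries were within a narrow range. Its log2 fold change was 0.89 ± 0.22 in slick oil (adjusted p = 3.86e-04) and 0.84 ± 0.21 in source oil (adjusted p = 1.07e-03). The raw counts behind these values were 38 to 49 in slick oil, 32 to 45 in source oil and 16 to 18 in controls.

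miR-430d had 51.2, 52.4 and 65.2 normalised counts in slick oil at 96 hpf, against 42.1, 27.6 and 34.9 in controls, and 47.2, 57.0 and 59.5 in source oil, against 42.5, 27.0 and 34.4 in controls. Every oil library again lay above every control library. Its log2 fold change was 0.70 ± 0.17 in slick oil (adjusted p = 3.48e-04) and 0.68 ± 0.16 in source oil (adjusted p = 3.00e-04). Since its counts shadow those of miR-430b, this is not treated as a second, separate result. In the authors' deposited tables, miR-430b had a log2 fold change of 0.59 (adjusted p = 0.00474) in slick oil and 0.57 (adjusted p = 0.00667) in source oil at 96 hpf.

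The miR-430a set had log2 fold changes below 0 at 96 hpf, of which 1 passed the test in slick oil and 0 in source oil. miR-430a had 113, 129 and 100.1 normalised counts in slick oil, against 143, 125 and 121 in controls, and 110, 118 and 113 in source oil, against 145, 122 and 119 in controls. The slick oil and control libraries overlapped, and the source oil libraries lay just below the control libraries. Its log2 fold change was -0.17 (95% interval -0.36 to 0.01, adjusted p = 0.130) in slick oil and -0.16 (-0.33 to 0.00, adjusted p = 0.174) in source oil. In a fit of all 27 libraries, whose scaling moved the median of all names by -0.09 in each oil, it was -0.27 in slick oil (adjusted p = 0.0160) and -0.26 in source oil (adjusted p = 0.0234). miR-430 had -0.23 ± 0.09 in slick oil, which passed the test (adjusted p = 0.0408), and -0.20 ± 0.09 in source oil, which did not (adjusted p = 0.0891). The slick oil call was lost with DESeq2 (adjusted p = 0.111), with scaling by library size alone (0.157), in the authors' deposited table (0.0560) and without any 1 of 4 libraries, among them slick oil replicate 9 (0.306). With the replicate number as a block, miR-430a-3p, whose counts nearly equal those of miR-430, also passed in slick oil (log2 fold change -0.22, adjusted p = 0.0485).

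A ratio of 2 names inside a library does not depend on how libraries are scaled. These ratios were chosen after the values were seen and carry no test. At 96 hpf the counts of miR-430b over miR-430a were 0.424 to 0.689 in slick oil, 0.482 to 0.588 in source oil and 0.238 to 0.328 in controls. For miR-430c-3p over miR-430a they were 0.224 to 0.341 in slick oil, 0.234 to 0.304 in source oil and 0.127 to 0.148 in controls. The oil and control libraries did not overlap in either ratio. At 48 hpf the mean of miR-430b over miR-430a was 0.784 in slick oil, 0.843 in source oil and 0.866 in controls, and at 24 hpf it was 1.00, 1.07 and 1.07. miR-430a-3p over miR-430a stayed between 0.977 and 1.05 in all 9 libraries at 96 hpf. A ratio shows unequal change and does not show which of the 2 names changed.

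**Figure D3:**
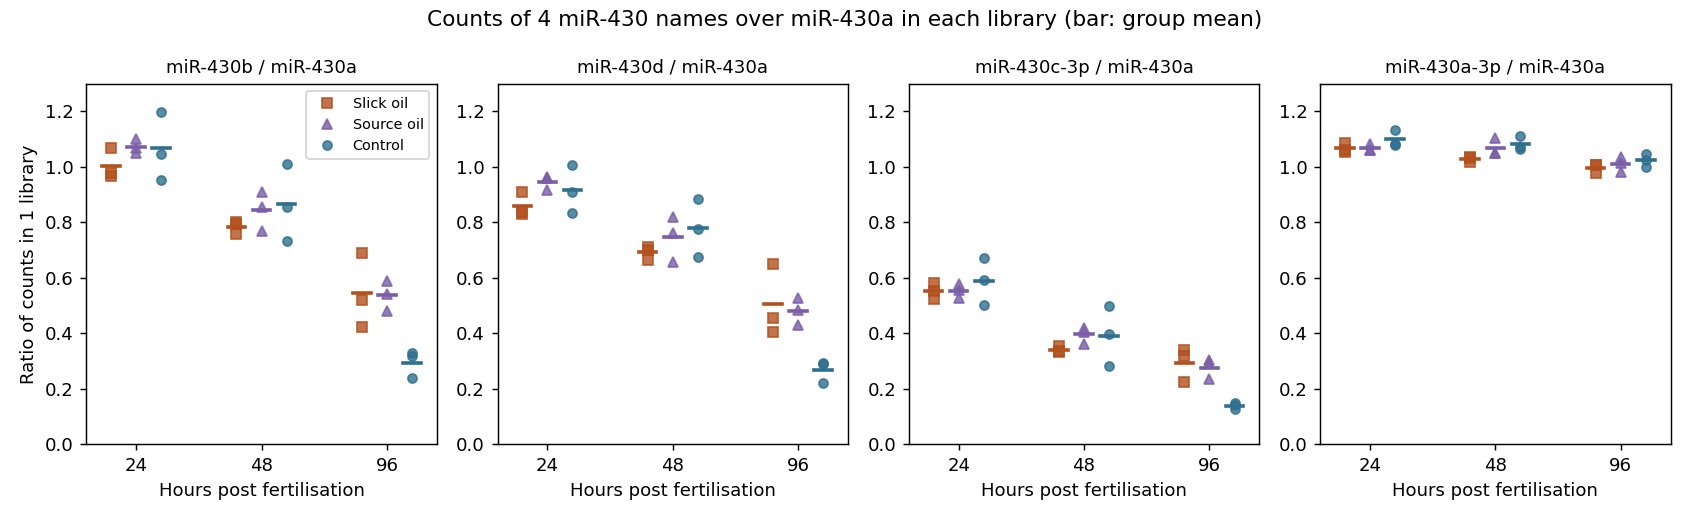
Ratio of raw counts of miR-430b, miR-430d, miR-430c-3p and miR-430a-3p over miR-430a within each library, by hours post fertilisation, with 1 point per library and a bar at each group mean. At 96 hpf the slick and source oil libraries lie above the control libraries for the first 3 ratios, and miR-430a-3p over miR-430a stays near 1 throughout.

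Whether the oil effect itself differed between stages was tested with both treatment-by-stage terms together, in 1 fit per oil. For slick oil 3 of 8 names passed, where 37.2% of 631 names tested passed, and for source oil 3 of 8 passed, where 19.8% of 643 names passed. The slick oil share is near that of all names. The names were miR-430b, miR-430c-3p and miR-430d in both oils. Each adjusted p below is of that joint test, and neither term was tested by itself. The log2 oil effect at 96 hpf minus that at 24 hpf was 0.68 ± 0.17 for miR-430b in slick oil (adjusted p = 0.003266) and 0.61 ± 0.17 in source oil (adjusted p = 0.008312). It was 0.89 ± 0.24 for miR-430c-3p in slick oil (adjusted p = 0.003836) and 0.84 ± 0.24 in source oil (adjusted p = 0.0261). For miR-430a it was -0.26 ± 0.12 in slick oil (adjusted p = 0.204) and -0.26 ± 0.11 in source oil (adjusted p = 0.212). The other term, the effect at 48 hpf minus that at 24 hpf, was -0.09 ± 0.10 in slick oil and -0.15 ± 0.09 in source oil for miR-430b. It was -0.15 ± 0.14 and -0.01 ± 0.14 for miR-430c-3p, -0.11 ± 0.10 and -0.21 ± 0.09 for miR-430d, and -0.03 ± 0.10 and -0.10 ± 0.09 for miR-430a. Without control replicate 8 of 96 hpf, the library with the lowest miR-430b and miR-430d levels, 0 of 8 names passed for source oil, with adjusted p of 0.0593 for miR-430b, 0.0789 for miR-430c-3p and 0.0542 for miR-430d. For slick oil, miR-430b then had an adjusted p of 0.0588 and the calls of the other 2 names remained. The source oil call of miR-430c-3p was lost in 7 of 18 runs that each left out 1 library, with adjusted p up to 0.0941. Those libraries were control replicates 4, 7, 8 and 9 and source oil replicates 3, 8 and 9.

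The 2 oils were then compared with each other at each stage. edgeR called 0 of 8 names at 24 hpf, where 1.16% of 603 names passed, 0 of 8 at 48 hpf, where 5.49% of 637 names passed, and 0 of 7 at 96 hpf, where 4.33% of 669 names passed. DESeq2 also called 0 at each stage, and an unadjusted p below 0.05 was given by edgeR to 2, 0 and 0 names. At 96 hpf slick minus source oil was 0.00 on the log2 scale for miR-430b (95% interval -0.24 to 0.25), 0.08 for miR-430c-3p (-0.25 to 0.41) and 0.06 for miR-430d (-0.21 to 0.32). At 24 hpf it was -0.21 for miR-430d (-0.36 to -0.06, adjusted p = 0.267) and -0.16 for miR-430b (-0.31 to -0.01, adjusted p = 0.364).

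Changes at 96 hpf varied with abundance across all names. In slick oil, names with a mean count under 25 had a median log2 fold change of 0.27, and those of 25 to under 50 had a median log2 fold change of 0.31, with 54 called higher and 17 lower. Those of 50 to under 100 had 0.12, those of 100 to under 200 had -0.07, and those of 200 or more had -0.23. In source oil the same 5 classes had medians of 0.17, 0.29, 0.14, -0.01 and -0.22. miR-430c-3p, at a mean count of 30.7 in the slick oil table, fell in the class of 25 to under 50, miR-430b (59.0) and miR-430d (54.3) in that of 50 to under 100, and the miR-430a set in that of 100 to under 200. The log2 fold changes of miR-430b, miR-430c-3p and miR-430d given above were larger than the medians of their classes. Among all names tested they ranked 121, 82 and 116 from the highest of 671 in slick oil. In source oil they ranked 87, 67 and 93 from the highest of 661. With cyclic loess scaling, which removes a trend over abundance, the log2 fold change of miR-430b was 0.53 in slick oil (adjusted p = 0.00314) and 0.50 in source oil (adjusted p = 0.0114). miR-430c-3p then had 0.66 (adjusted p = 0.0108) and 0.56 (adjusted p = 0.0420), and miR-430d 0.54 (adjusted p = 0.00400) and 0.45 (adjusted p = 0.0253), in slick and source oil.

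**Figure D4:**
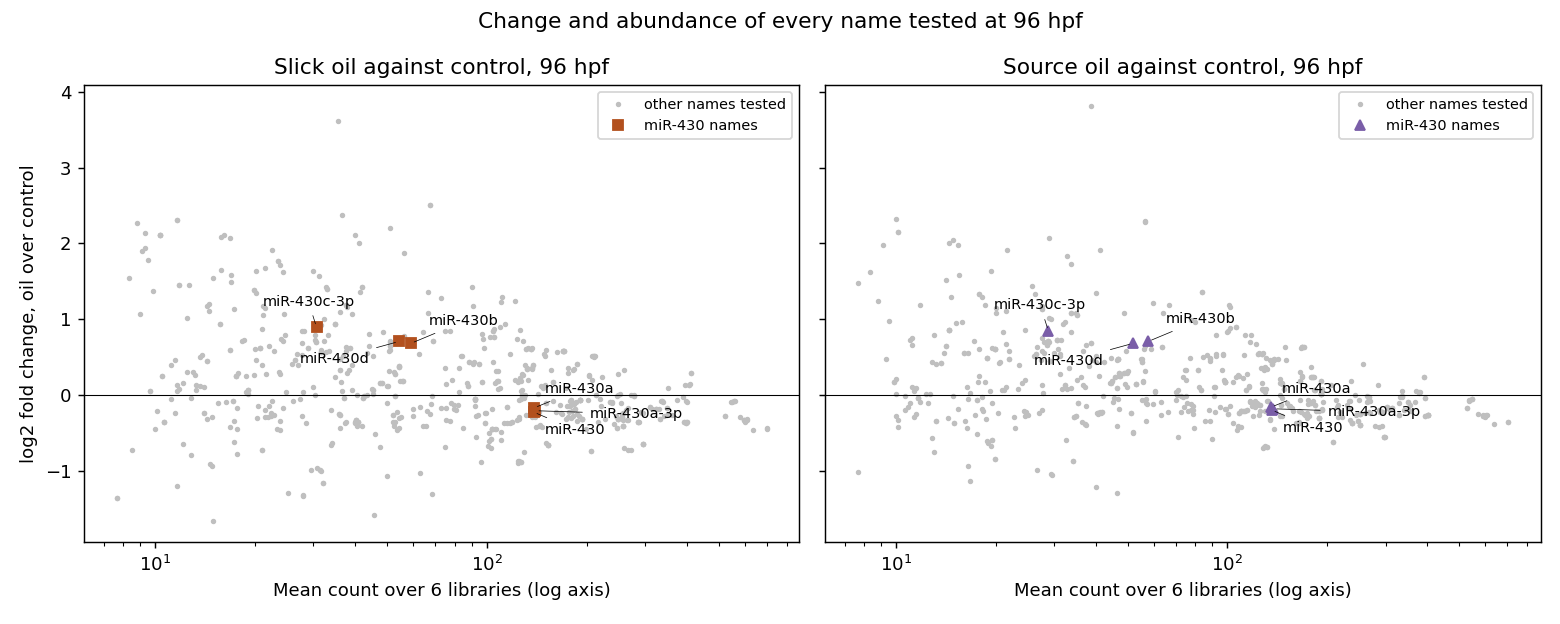
Log2 fold change of oil over control at 96 hpf against mean count over the 6 libraries of the table (log axis) for every name tested, slick oil on the left and source oil on the right, with the miR-430 names marked. Low-count names spread upward and high-count names lie slightly below 0, and miR-430b, miR-430c-3p and miR-430d lie above 0 among the names of lower count.

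Other measures also differed between oil and control libraries at 96 hpf. Shares in this paragraph are of the counts of the 913 joined names described below, while the miR-430 shares above are of full library totals. The summed share of the 41 names numbered miR-9 or miR-124, markers of neural tissue, was 8.15 to 8.34% in slick oil, 8.35 to 8.74% in source oil and 9.42 to 9.97% in controls. The 5 liver names of miR-122 took 0.645 to 0.765% in slick oil, 0.797 to 0.837% in source oil and 0.922 to 1.01% in controls. The 33 skeletal muscle names took 7.19 to 7.61% in slick oil, 7.06 to 7.67% in source oil and 6.80 to 6.95% in controls. The 7 eye names of miR-204 took 1.299 to 1.452% in slick oil, 1.09 to 1.17% in source oil and 0.895 to 1.01% in controls. For these 4 lists the oil and control libraries did not overlap, and the library totals given above were also higher in oil. The 11 leukocyte names took 0.220 to 0.291% in slick oil, 0.301 to 0.363% in source oil and 0.306 to 0.422% in controls, so only the slick oil libraries stood apart, and the red blood cell and lens lists overlapped between each oil and controls. Some of these differences were present before 96 hpf. At 24 hpf the eye names took 1.42 to 1.67% in slick oil, 1.11 to 1.27% in source oil and 0.879 to 0.944% in controls. The neural names took 4.55 to 4.92%, 4.89 to 4.94% and 5.73 to 5.90%, in that order. Neither list overlapped between oil and control libraries at 24 or 48 hpf. The liver names overlapped at both stages, and the muscle names did except in slick oil at 24 hpf. The lens names, which overlapped at 96 hpf, took higher shares in both oils at 24 and 48 hpf, without overlap. The leukocyte names took lower shares in both oils at 24 and 48 hpf, again without overlap. The red blood cell names stood lower without overlap in both oils at 48 hpf, and in slick oil only at 24 hpf. The part of these lists and totals in the miR-430 result was not tested.

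The miR-17 group (names of miR-17, miR-18, miR-20, miR-93 and miR-106, with any letter or arm) was followed over the same comparisons. It is known in vertebrates for its link to cell proliferation, and the seed of miR-17 is related to that of miR-430. The group was taken by number and no sequences were compared, so not every name in it need have such a seed. Of its 45 names, 22 were tested over the stages in controls, where 0 were called higher and 10 lower at 48 against 24 hpf, and 0 higher and 20 lower at 96 against 48 hpf. The counts called lower at the 2 steps were 5 and 10 of 22 in slick oil and 8 and 8 of 22 in source oil, with 0 higher in each. Of all names tested at these 2 steps, 22.0 and 29.1% were called lower in controls. In slick oil 20.9 and 24.2% were, and in source oil 21.7 and 22.6%. Of all names, 141 and 179 of 605 were called higher in controls, 143 and 174 of 611 in slick oil, and 153 and 177 of 614 in source oil. At 96 hpf, 23 were tested against control: 15 were called higher and 1 lower in slick oil, with a median log2 fold change of 0.40, and 19 higher and 0 lower in source oil, with a median of 0.52. The median of all names was -0.01 in slick oil and 0.03 in source oil. Of all names, 32.5% were called higher and 27.6% lower in slick oil, and 28.3% higher and 19.7% lower in source oil. Names of this group may share reads too. Of 6 names that match numbers of embryonic relatives in other vertebrates, 0 passed the filter on low counts in any comparison.

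Outside the family, the names whose 9 group means followed miR-430b most closely, at most 1 per miRNA number, were miR-20a (Pearson r = 0.991 of log2 normalised counts), miR-219a (0.984), miR-130c (0.984), miR-17 (0.961) and miR-106a (0.957). They were taken from 655 names, and the 9 means share stages and scaling. Inside the family, r with miR-430b was 0.9999 for miR-430d, 0.996 for miR-430c-3p and 0.973 to 0.984 for the other 5 names. miR-20a had 174, 145 and 104 normalised counts in slick oil, 186, 146 and 116 in source oil, and 178, 148 and 97.3 in controls, at 24, 48 and 96 hpf. Its fall over the stages was thus much smaller than that of miR-430b.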

How the data were processed

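Whole-number counts per miRNA name were deposited by the authors in 6 tables of 3 oil and 3 control libraries. Neither the aligner nor the miRNA reference nor the way reads were counted is stated in the labels or files. The authors also deposited 6 tables of log2 fold changes, p-values, mean normalised signal and a test score, per the file headers. They come from DESeq2, per the submitters' processing notes. One table ended in 6813 blank lines, which were dropped.

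Library totals were 51925 to 93055 counts, and counting error at low counts limits the precision. Names were tested with edgeR 4.0.16 (R 4.3.3) by the quasi-likelihood test, two-sided, with TMM scaling, a minimum count of 10 in edgeR's expression filter, and Benjamini-Hochberg adjustment over all names tested at a threshold of 0.05. edgeR keeps such a p from falling below that of a Poisson test, so a 95% interval can leave out 0 where the p is above 0.05. The SEs and 95% intervals have no such limit. Where the pools varied less than sampling noise, they can be narrower than counting error alone would give. Stage steps used 9 libraries of 1 treatment, and the oil effect by stage used 18. Tables were joined on the 913 names whose control counts were equal in both tables of every stage. Control counts differed for 38, 28 and 38 names at 24, 48 and 96 hpf, none of them miR-430. Levels over stages use TMM factors from all 27 libraries on the joined names, with 1 constant for all libraries that puts the values on a scale of 70000 counts per library. The scripts were tested on simulated data. Alternatives used DESeq2 1.42.0 and cyclic loess in limma 3.58.1.

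All 8 names of the family are named, with the 5 outside names most like miR-430b. The members, lists and tests were chosen with earlier results of these data known. Between replicates, chi-square over degrees of freedom was 0.479 to 1.87 and under 1 in 19 of 27 pairs, so most replicates differed by less than sampling noise. They were kept as separate libraries because this held in most groups. Same-numbered oil and control libraries deviated together in every pair only for slick oil at 96 hpf (correlations 0.139 to 0.175). Correlations this weak, from 3 libraries per group, cannot decide whether the numbers pair the samples at any stage. The main tests therefore used no block, and the replicate number was used as a block in an alternative.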

Additional observations from a re-analysis of the deposited data

Results flagged for a closer look

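For 6 of the results above, the oil effect on a name differed between the 3 stages in a test of that difference (edgeR's quasi-likelihood test of both treatment-by-stage terms, Benjamini-Hochberg adjustment over all names). In slick oil the adjusted p was 0.003266 for miR-430b, 0.003836 for miR-430c-3p and 0.001821 for miR-430d. In source oil it was 0.008312 for miR-430b, 0.0261 for miR-430c-3p and 0.008119 for miR-430d. In each case the log2 effect was near or below 0 at 24 and 48 hpf, except for miR-430b and miR-430d in source oil at 24 hpf (0.08 and 0.11), and above 0.6 at 96 hpf. miR-430b and miR-430d have closely correlated counts, and the 2 oils share their controls, so these are not 6 separate observations. Of all names, 37.2% passed this test in slick oil and 19.8% in source oil, so the 3 of 8 names in slick oil are at about the rate of all names. Without control replicate 8 of 96 hpf, 0 of the 3 source oil calls and 2 of the 3 slick oil calls remained.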

How the results depend on the processing

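miR-430b, miR-430c-3p and miR-430d stayed higher in both oils at 96 hpf under every alternative run, and all 8 names stayed lower at every stage step. No called value changed sign. Of 2231 values of single names under an alternative, 2177 kept their call, 31 gained one and 23 lost one. With a main count of 0 names in slick oil at 24 hpf, library size alone gave 1, cyclic loess 2 and a minimum count of 20 gave 1, all lower. With a main count of 0 in slick oil at 48 hpf, DESeq2's size factors in edgeR gave 1, library size alone 1 and cyclic loess 3, all lower. At 96 hpf, 4 names were called in slick oil and 3 in source oil, and a fit of all 27 libraries, whose scaling moved the median of all names by -0.09 in each, called 6 in both. Leaving out 1 library at a time gave 0 to 3 names in slick oil at 48 hpf (3 without control replicate 6), 3 to 6 in slick oil at 96 hpf and 3 to 5 in source oil at 96 hpf (5 without control replicate 9). It gave 2 to 6 names for the slick oil effect by stage (2 without control replicate 8, 6 without control replicate 6 or slick oil replicate 8) and 0 to 3 for source oil (0 without control replicate 8 of 96 hpf). miR-430c-3p lost its source oil stage call with DESeq2 (adjusted p = 0.0818) and cyclic loess (0.0817). The cause of these changes was not tested. With the replicate block, 5 names were called in slick oil at 96 hpf in place of 4, and the counts of the other comparisons did not move. No paired analysis was possible for the stage steps because the stages share no replicate numbers. Averaging the closest replicate pair of each oil at 24 hpf, chosen after seeing the data, left both counts at 0. At 96 hpf, counts of 3 to 13 limit what can be said of miR-430c and miR-430i-3p.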
